A study of Homo sapiens with 6 samples.

Results

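The genes described are the heat shock protein and co-chaperone families of the cytosol, nucleus and mitochondria. They were taken by symbol: the HSP70 (HSPA), HSP110, HSP90, small heat shock protein (HSPB), J-domain (DNAJA, DNAJB, DNAJC), CCT chaperonin and BAG families, the mitochondrial chaperonin HSPD1 with HSPE1, TRAP1, the heat shock factors HSF1 and HSF2, and the co-chaperones STIP1, AHSA1, CDC37 and STUB1. The rule reads symbols and no measured value, but it was set with earlier results of these data known. In GENCODE 29, 91 protein-coding genes meet it, and 70 of them are among the 13885 genes of the authors' deposited table. The 21 others, among them HSPA1A and HSPA1B, the classic stress-inducible HSP70 genes, were not analysed here. The relatives HSPA5, HSPA13, DNAJB9, DNAJB11, DNAJC1, DNAJC3 and DNAJC10, which work in the endoplasmic reticulum (ER), were left out and serve as the comparison. By current names 68 of the 70 still meet the rule, because one of 2 identifiers called HSPA14 in GENCODE 29 is now MSANTD7 and HSPB11 is now IFT25.

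Molecular chaperones bind unfolded stretches of other proteins and release them for folding, refolding or breakdown. HSP70 is the central machine: J-domain proteins bring it clients and start its ATP cycle, nucleotide exchange factors such as HSP110 and the BAG proteins open it again, and HSP90 or the ring-shaped chaperonins take over clients that need more help. In the cytosol some of these genes are induced by heat shock factor 1 through heat shock elements in their promoters. The chaperones of the ER answer to a separate program, the unfolded protein response, in which ATF6 and XBP1 act through ER stress elements.

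RNA was measured in BE(2)-C, a human neuroblastoma cell line whose genotype the labels give as WT. In 3 samples the cells had been transfected for 24 h with an siRNA against PCIF1, the methyltransferase that makes the cap-adjacent mark m6Am, and in 3 with a scrambled siRNA (siScramble). Both groups were then kept for 4 days in ATRA (all-trans retinoic acid) at 10 µM, so every comparison is between retinoic acid treated cells of 1 line. Whether samples of the same group are separate cultures is not in the labels, and the p-values then measure only the spread between these samples, which may be technical.

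The measurements are those of the authors' deposited DESeq2 table, which holds for each gene a mean normalised count over all samples, a log2 fold change with its standard error (SE), and an adjusted p. Values per library were not analysed here and the depth of each library is unknown, so the SE is the measure of precision, from 0.12 to 0.30 with a median of 0.18 over the authors' deposited table. The header does not state the direction of the comparison. It was read from PCIF1 (chromosome 20, 45934628 to 45948023, GRCh38), whose log2 fold change of -0.82 (SE 0.19, DESeq2 adjusted p = 0.000167) per the authors' deposited table puts it at 56.6% of siScramble (95% interval 43.7% to 73.4%). The name of the table, read from left to right, would give the opposite direction, and every sign below would turn. All 8 markers of adrenergic neuroblastoma that were looked up are among the genes of the table, and examples are HAND2, GATA3 and MYCN, which rose, and ISL1, which fell. Of 14 markers of other cell types 8 are not among its genes, including PTPRC, CD68 and PECAM1. Of the other 6, at means of 13.9 to 150, S100B of Schwann cells rose, at 1.21 (SE 0.22) per the authors' deposited table, and its part in the results below was not tested. Across genes, the fold change on the log2 scale, per the authors' deposited table, went down with the GC content of the transcript (Spearman's rho -0.42) and up with its length (0.24). Genes are not independent replicates, so no p is given.

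After PCIF1 siRNA, more heat shock protein genes rose than fell, most of them by less than 1 on the log2 scale and not evenly over the families. By the authors' deposited table, 31 genes (44.3%) had a DESeq2 adjusted p under 0.05, against 34% of all genes. Of these, 23 genes (32.9%) rose, against 16.3% of all genes, and 8 (11.4%) fell, against 17.7% of all genes. The median log2 fold change of the 70 genes was 0.15, and that of all 13885 genes per the authors' deposited table was 0.0059. Nearly all genes that rose were among the more abundant: of the 55 genes with a mean normalised count of at least 100, 22 (40.0%) rose and 6 (10.9%) fell, beside 18.8% and 21.5% of all genes above that mean. Of the 15 rarer genes 1 rose (6.67%) and 2 fell (13.3%), beside 16.3% and 17.7% of all genes of any mean. The share of all genes under that mean was not computed. These counts were not tested against those of other genes, and in such bulk RNA fewer cells of a type cannot be told apart from less RNA per cell. Of the 31, 3 had an absolute log2 fold change of 1 or more per the authors' deposited table: DNAJC22, HSPA4L and BAG3. The share of all called genes at that size was not computed. Printed fold changes may be shrunken, so sizes may be understated.

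A trend with base composition ran through these counts. The median GC content of the main transcript was 43.0% for the 23 genes that rose, 54.6% for the 8 that fell and 48.7% for the rest. After regression of the fold changes of the authors' deposited table on GC content, transcript length and expression (removal of the trend), 19 of the 70 genes were called higher and 5 lower, beside 12.3% and 12.7% of all genes. The robust SD of the Wald statistic over the authors' deposited table was 2.44, and with the statistic scaled to it only DNAJC22 of the 70 remained called.

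**Figure D1:**
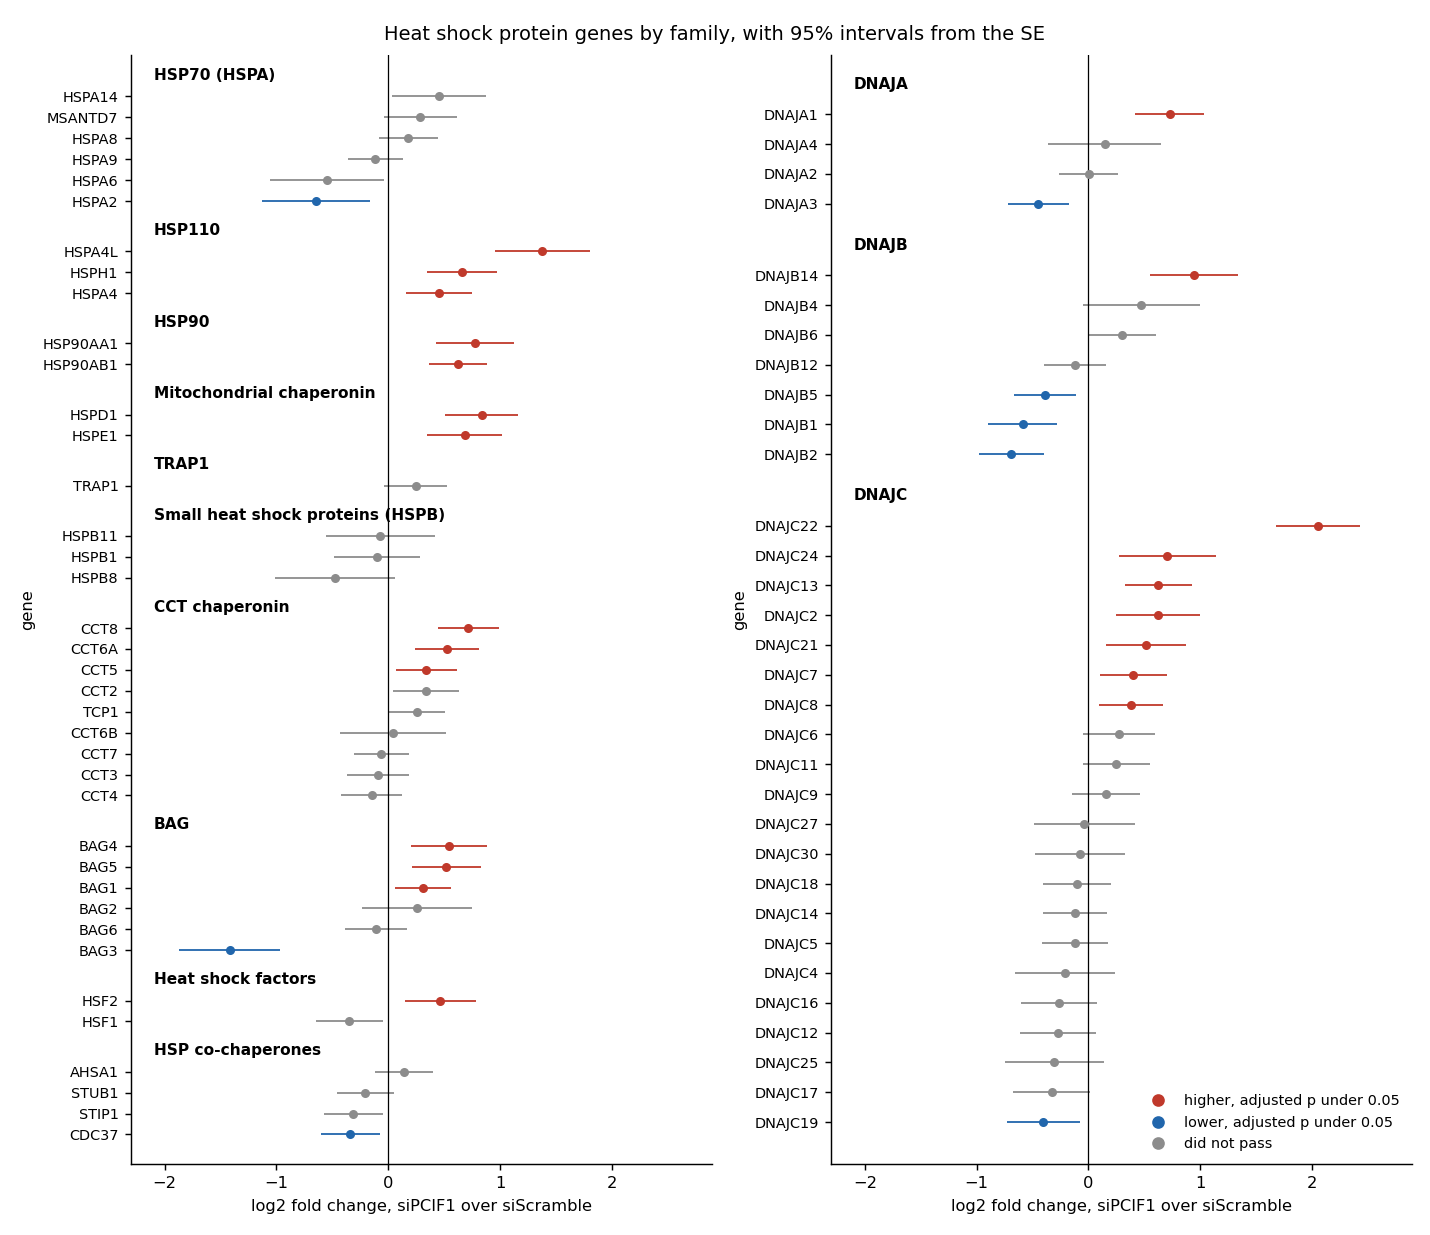
Log2 fold change, siPCIF1 over siScramble, of the 70 genes by family, as points with 95% intervals from the SE (horizontal axis in log2 units), coloured by the DESeq2 adjusted p of the authors' deposited table. All members of HSP110, HSP90 and the mitochondrial chaperonin lie to the right of 0, the small heat shock proteins have no coloured point, and DNAJC22 at 2.05 and BAG3 at -1.42 are the extremes.

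Heat shock elements were searched in the promoters, since they are the DNA address of the heat shock factors. The search covered RefSeq promoter windows of GRCh38.p14 with 250 bases before and 50 after a gene's start, on both strands. A window was found for 63 of the 70 genes; HSPA14, DNAJC22, DNAJC24, CCT6A, BAG4, HSF1 and STUB1 had none. The window nearest to the start of the main transcript was used, and for HSPA2, HSPH1, HSPE1, DNAJB12, DNAJB5, DNAJC9 and CCT5 it lay over 300 bases from that start. The 2-unit element, GAANNTTC or TTCNNGAA, was present in 17 of 63 windows (27.0%), beside 13.5% of all 35116 windows. The 3-unit element, in which GAA and TTC alternate with 2 bases between units and which always includes a 2-unit match, was present in 6 of 63 (9.52%), beside 0.49% of all windows. Below are the 3-unit sites of these 6 genes, shown because they are the strongest matches among the families. Each line gives 30 bases 5′ to 3′ on the strand of the gene, with the heat shock element in capitals.
HSPD1, chr2:197500061-197500090, minus strand: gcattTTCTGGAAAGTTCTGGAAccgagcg
HSP90AA1, chr14:102087112-102087141, minus strand: ggagggttcTTCCGGAAGGTTCgggaggct
DNAJA1, chr9:33025267-33025296, plus strand: cgccgggcgGAACTTTCCAGAAcgctcggt
HSPA8, chr11:123062346-123062375, minus strand: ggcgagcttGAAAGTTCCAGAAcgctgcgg
HSPA8, chr11:123062171-123062200, minus strand: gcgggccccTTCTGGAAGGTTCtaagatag
HSPA6, chr1:161524457-161524486, plus strand: gcggaaaggTTCGCGAAAGTTCgcggcggc
DNAJB6, chr7:157336864-157336893, plus strand: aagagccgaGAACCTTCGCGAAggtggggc
In HSPD1 the run is 18 bases long and holds 4 units, from position -245 to -228 before the RefSeq start. In HSP90AA1 it lies at -88 to -76, with a further 2-unit element at -68 to -61. In DNAJA1 the site lies just after the start, at 4 to 16, and in HSPA8 the pair lies at -230 to -218 and -55 to -43.

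Of these 6 genes 3 rose per the authors' deposited table, HSPD1, HSP90AA1 and DNAJA1, beside 32.9% of the 70 genes and 16.3% of all genes. HSPA8, HSPA6 and DNAJB6 did not pass the DESeq2 threshold. The median log2 fold change of the 6 was 0.51 per the authors' deposited table. It was 0.04 for the 11 genes with a 2-unit element alone and -0.02 for the 46 genes with neither. The 46 include every gene named above whose window lay far from the start of its main transcript, where an element could be missed. HSPE1, at 0.68, is one, although its annotated start lies within the HSPD1 window that holds a heat shock element. Left out for lack of a window are DNAJC22, DNAJC24, CCT6A and BAG4, which rose, and HSPA14, HSF1 and STUB1, which did not pass. The difference between the groups was not tested. The 2-unit sites of HSPA4L, which rose, and DNAJB1, which fell, are given because these genes went opposite ways.
HSPA4L, chr4:127782141-127782170, plus strand: tttccagatctTTCTCGAAcccgcagcttc
DNAJB1, chr19:14518456-14518485, minus strand: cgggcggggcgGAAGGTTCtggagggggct
DNAJB1, chr19:14518426-14518455, minus strand: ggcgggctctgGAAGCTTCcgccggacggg
A match describes letters in a window and is not evidence that a factor binds there.

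**Figure D2:**
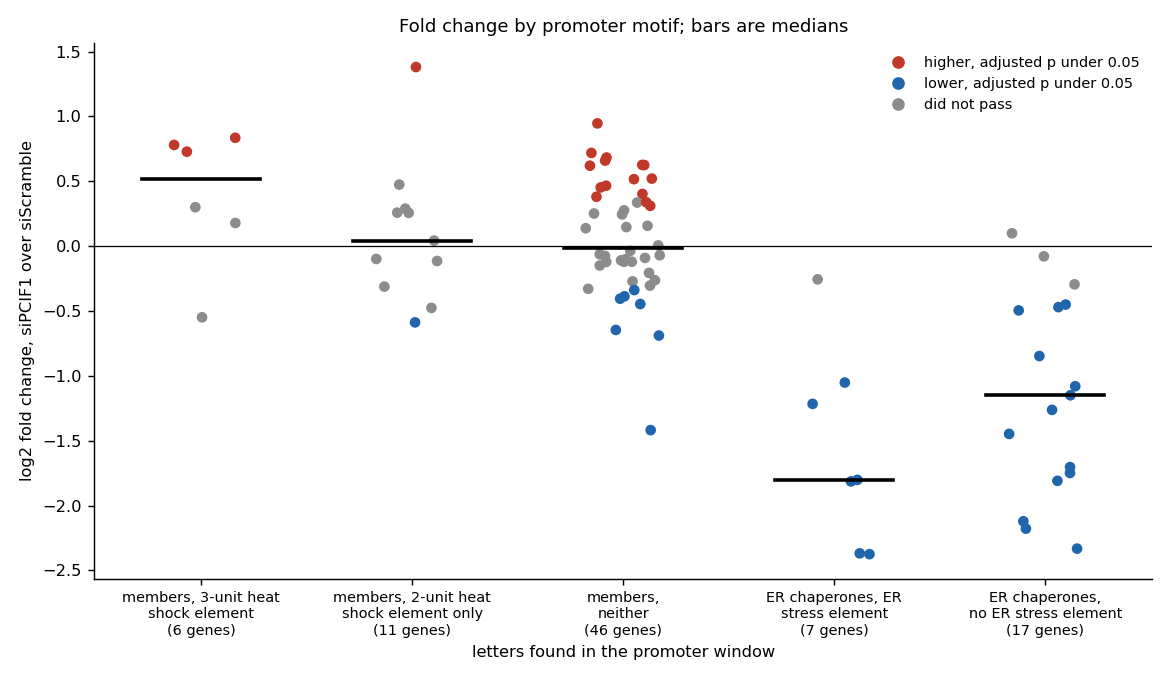
Log2 fold change, siPCIF1 over siScramble (vertical axis), of single genes grouped by the element found in their promoter window, with black bars at the medians and colours for the DESeq2 adjusted p. The 6 genes with a 3-unit heat shock element spread from -0.55 to 0.84, the 11 with a 2-unit element alone from -0.59 to 1.38, and the 46 with neither from -1.42 to 0.95, and the ER chaperones lie lower in both of their groups.

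Both cytosolic HSP90 genes rose. HSP90AA1, the more stress-inducible form (chromosome 14, 102080738 to 102139699), was 1.72-fold higher per the authors' deposited table, at a log2 fold change of 0.78 (SE 0.18, DESeq2 adjusted p = 0.000115). HSP90AB1, the constitutive form, was 1.54-fold higher per the authors' deposited table, at 0.63 (SE 0.13, DESeq2 adjusted p = 2.68e-05). By length, HSP90AB1 is the more abundant: its mean normalised count per kilobase of main transcript was 4475 per the authors' deposited table, and that of HSP90AA1 was 322. TRAP1, the HSP90 of mitochondria, had a log2 fold change of 0.24 (SE 0.15, DESeq2 adjusted p = 0.191) per the authors' deposited table. TRAP1 is GC-rich at 58.2%, and with the trend removed from the authors' deposited table it was called higher, at 0.57 (adjusted p from the DESeq2 statistics 0.00105).

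The HSP70 proteins themselves showed no common change, whereas all 3 members of the HSP110 family, the exchange factors that reset cytosolic HSP70, rose. HSPA8, the constitutive HSP70 and the most abundant of the 70 genes by length at 9299.9 normalised counts per kilobase, had a log2 fold change of 0.18 (SE 0.14, DESeq2 adjusted p = 0.319) per the authors' deposited table. HSPA9, the HSP70 of mitochondria, was at -0.11 (SE 0.13, DESeq2 adjusted p = 0.515) per the authors' deposited table. Neither of these 2 main HSP70 genes therefore passed, although HSPA8 did with the trend removed, at 0.42 (adjusted p from the DESeq2 statistics 0.0112).

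HSPA2, an HSP70 best known from the testis, fell, with a log2 fold change of -0.65 (SE 0.25, DESeq2 adjusted p = 0.0302) at a mean normalised count of 45.4 per the authors' deposited table. HSPA6, an HSP70 that is silent without stress in most cells, was at -0.55 (SE 0.26, DESeq2 adjusted p = 0.0873) and a mean of 29.6 per the authors' deposited table. HSPA14, a ribosome-associated HSP70, was at 0.45 (SE 0.22, DESeq2 adjusted p = 0.0895), and its former namesake MSANTD7 at 0.29 (SE 0.17, DESeq2 adjusted p = 0.175) per the authors' deposited table. These 2 overlap on the same strand, and no source used here says how the authors' counting divided reads between them.

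Among the exchange factors HSPA4L (chromosome 4, 127781821 to 127840733) had the highest value. It was 2.60-fold higher per the authors' deposited table, with a log2 fold change of 1.38 (SE 0.22, DESeq2 adjusted p = 1.18e-08) at a mean of 113. HSPH1, the stress-inducible member, had a log2 fold change of 0.66 (SE 0.16, DESeq2 adjusted p = 0.000374) per the authors' deposited table, and HSPA4 one of 0.45 (SE 0.15, DESeq2 adjusted p = 0.0111). The transcripts of these 3 genes are AT-rich, with GC contents of 38.1%, 40.0% and 42.5%. With the trend removed, HSPA4L remained called at 0.96, while HSPH1 at 0.40 (adjusted p from the DESeq2 statistics 0.0562) and HSPA4 at 0.30 (0.131) did not.

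The mitochondrial chaperonin rose in both of its parts. HSPD1 (HSP60; chromosome 2, 197486581 to 197516737) forms the barrel in which matrix proteins fold, and was 1.78-fold higher per the authors' deposited table, at 0.84 (SE 0.17, DESeq2 adjusted p = 9.28e-06). HSPE1 (HSP10; chromosome 2, 197499994 to 197503457), its lid, was 1.61-fold higher per the authors' deposited table, at 0.68 (SE 0.17, DESeq2 adjusted p = 0.000612). The genes are read in opposite directions, and the annotated start of HSPE1 lies within the HSPD1 promoter window that holds the 4-unit heat shock element shown above. Exons of the pair overlap, and 17 pseudogenes are named after HSPD1 and 26 after HSPE1. Removing the trend from the authors' deposited table left both called, at 0.88 and 0.84.

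CCT, the cytosolic chaperonin that folds actin and tubulin, is a ring of different subunits, of which some rose and none fell. Of the 9 CCT genes measured, CCT8, CCT6A and CCT5 rose (33.3%) and 0 fell per the authors' deposited table, beside 16.3% and 17.7% of all genes. At an unadjusted DESeq2 p under 0.05, 5 were higher and 0 lower. CCT8 was 1.65-fold higher, at a log2 fold change of 0.72 (SE 0.14, DESeq2 adjusted p = 4.34e-06) per the authors' deposited table. CCT6A was at 0.52 (SE 0.15, DESeq2 adjusted p = 0.00204) and CCT5 at 0.34 (SE 0.14, DESeq2 adjusted p = 0.0455) per the authors' deposited table. The subunits sit in the ring in fixed numbers, and their log2 fold changes ran from -0.15 for CCT4 to 0.72 for CCT8. Between these, the authors' deposited table has CCT2 at 0.34 (DESeq2 adjusted p = 0.0712), TCP1 at 0.26, CCT6B at 0.04, CCT7 at -0.06 and CCT3 at -0.09, none of which passed. CCT8 and CCT4 have 95% intervals that do not overlap, 0.44 to 0.99 against -0.42 to 0.13 per the authors' deposited table; the difference between the 2 genes was not tested. Prefoldin hands clients to CCT. Of 10 genes for prefoldin and other CCT cofactors, 0 passed the DESeq2 threshold per the authors' deposited table, beside 34% of all genes. At an unadjusted DESeq2 p under 0.05, 3 were higher and 1 lower, and the median of the 10 was 0.13.

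J-domain proteins are the partners that choose the clients of HSP70. Of 32 measured, 9 rose (28.1%) and 5 fell (15.6%) per the authors' deposited table, beside 16.3% and 17.7% of all genes, with a median log2 fold change of -0.02, or 0.07 with the trend removed. In the DNAJA family, DNAJA1, a cytosolic partner of HSPA8, was 1.66-fold higher per the authors' deposited table, at 0.73 (SE 0.16, DESeq2 adjusted p = 4.89e-05). DNAJA3, the main J-domain protein of the mitochondrial matrix, fell, at -0.45 (SE 0.14, DESeq2 adjusted p = 0.00665) per the authors' deposited table, a call that was lost with the trend removed (-0.24, adjusted p from the DESeq2 statistics 0.215). DNAJA2 and DNAJA4, at 0.01 and 0.15 per the authors' deposited table, did not pass.

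In the DNAJB family 1 gene of 7 rose and 3 fell, beside 16.3% and 17.7% of all genes, and the family median of -0.12 per the authors' deposited table became 0.07 with the trend removed. DNAJB1 (HSP40; chromosome 19, 14514770 to 14529770), the classic heat-inducible J-domain protein, was at 66.5% of the siScramble level per the authors' deposited table, at -0.59 (SE 0.16, DESeq2 adjusted p = 0.00126). DNAJB2, a neuronal form that binds ubiquitin, was at 62.0% per the authors' deposited table, at -0.69 (SE 0.15, DESeq2 adjusted p = 3.67e-05). Of these DNAJB2 remained called with the trend removed, at -0.42, and DNAJB1 did not, at -0.39 (adjusted p from the DESeq2 statistics 0.056). DNAJB5, another cytosolic member, was at -0.39 (SE 0.14, DESeq2 adjusted p = 0.0229) per the authors' deposited table and at -0.14 (0.524) with the trend removed. DNAJB14, which is anchored in the ER membrane with its J domain facing the cytosol, rose, at 0.95 (SE 0.20, DESeq2 adjusted p = 3.04e-05) per the authors' deposited table. Its transcript has the low GC content of 33.4%, and with the trend removed it was at 0.49 (adjusted p from the DESeq2 statistics 0.0568). Its relative in the same membrane, DNAJB12, was at -0.12 per the authors' deposited table and missed the threshold, as did DNAJB4 at 0.47 and DNAJB6 at 0.30.

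DNAJC is the mixed family, whose members share the J domain and little else. DNAJC22 (chromosome 12, 49346917 to 49357546), a membrane protein with a J domain, had the highest log2 fold change of the 70 genes, 2.05 (SE 0.19, DESeq2 adjusted p = 2.10e-23) per the authors' deposited table. That is a 4.15-fold higher level, with a 95% interval of 320.0% to 538% of siScramble. Its GC content is 57.0%, and with the trend removed it was at 2.25.

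Another 6 DNAJC genes rose per the authors' deposited table, so that 7 of 21 rose (33.3%), beside 16.3% of all genes. DNAJC24, which acts in diphthamide synthesis, was at 0.71 (SE 0.22) and DNAJC13, which acts on endosomes, at 0.62 (SE 0.15) per the authors' deposited table. DNAJC2, a J-domain protein bound to the ribosome, was at 0.62 (SE 0.19) and DNAJC21, a factor of ribosome assembly, at 0.52 (SE 0.18) per the authors' deposited table. DNAJC7, which binds both HSP70 and HSP90, was at 0.40 (SE 0.15), and DNAJC8, which associates with the spliceosome, at 0.38 (SE 0.14) per the authors' deposited table. With the trend removed, DNAJC13 at 0.36, DNAJC21 at 0.42 and DNAJC24 at 0.54 were no longer called (adjusted p from the DESeq2 statistics 0.0693, 0.0696 and 0.0589). DNAJC19, part of the motor that pulls proteins into mitochondria, was the member that fell, at -0.41 (SE 0.17, DESeq2 adjusted p = 0.0451) per the authors' deposited table, and 9 pseudogenes are named after it. The 13 members that did not pass ran from -0.33 for DNAJC17 to 0.28 for DNAJC6 per the authors' deposited table, with DNAJC4, DNAJC5, DNAJC9, DNAJC11, DNAJC12, DNAJC14, DNAJC16, DNAJC18, DNAJC25, DNAJC27 and DNAJC30 between them.

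The BAG proteins, exchange factors that couple HSP70 to other pathways, held the largest decrease. BAG3 (chromosome 10, 119651370 to 119677819), which routes HSP70 clients to autophagy, was at 37.4% of siScramble (95% interval 27.4% to 51.1%) per the authors' deposited table. Its log2 fold change of -1.42 (SE 0.23, DESeq2 adjusted p = 2.26e-08) rests on a low mean normalised count of 57.1 per the authors' deposited table, and it was -1.25 with the trend removed. HSPB8, the small heat shock protein that works in a complex with BAG3, was at -0.48 (SE 0.27, DESeq2 adjusted p = 0.166) and a mean of 21.7 per the authors' deposited table.

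BAG4, BAG5 and BAG1 went the other way and rose. BAG4 was at 0.54 (SE 0.17, DESeq2 adjusted p = 0.00867) and BAG5 at 0.52 (SE 0.16, DESeq2 adjusted p = 0.00535) per the authors' deposited table, and both calls were lost with the trend removed. BAG1 was at 0.31 (SE 0.13, DESeq2 adjusted p = 0.0470) per the authors' deposited table, an adjusted p that became 0.0519 when fold changes were centred on the median of all genes. With the trend removed it was at 0.63 (adjusted p from the DESeq2 statistics 1.89e-05). BAG2, which restrains STUB1, was at 0.26 (SE 0.25) and BAG6, which handles proteins that miss their membrane, at -0.11 (SE 0.14) per the authors' deposited table, and neither passed.

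Of the 2 heat shock factors and 4 co-chaperones, HSF2 rose and CDC37 fell. HSF1, which induces some of these genes, was at -0.35 (SE 0.15, DESeq2 adjusted p = 0.0611) per the authors' deposited table. HSF2, which pairs with HSF1, was called higher at 0.47 (SE 0.16, DESeq2 adjusted p = 0.0154) per the authors' deposited table. With the trend removed, HSF1 was at -0.02 and HSF2 at 0.31 (adjusted p from the DESeq2 statistics 0.155), so neither was called. CDC37, which loads kinases onto HSP90, fell, at -0.34 (SE 0.14, DESeq2 adjusted p = 0.0387) per the authors' deposited table. Its transcript has a GC content of 60.0%, and with the trend removed it was at -0.01 (adjusted p from the DESeq2 statistics 0.963). STIP1, which joins HSP70 to HSP90, was at -0.31 (SE 0.13, DESeq2 adjusted p = 0.0561) per the authors' deposited table. STUB1, the ubiquitin ligase of the system, was at -0.20 (SE 0.13) and AHSA1, which speeds the ATPase of HSP90, at 0.14 (SE 0.13) per the authors' deposited table, and neither passed.

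Of the 3 small heat shock proteins measured, 0 passed the DESeq2 threshold, beside 34% of all genes, and 0 also at an unadjusted p under 0.05. HSPB1 (HSP27) was at -0.10 (SE 0.20) and HSPB11 at -0.07 (SE 0.25) per the authors' deposited table. With the trend removed, these turned to 0.27 and 0.06. The intervals are wide, from -0.48 to 0.28 for HSPB1 per the authors' deposited table, so a moderate change either way was not detectable.

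**Figure D3:**
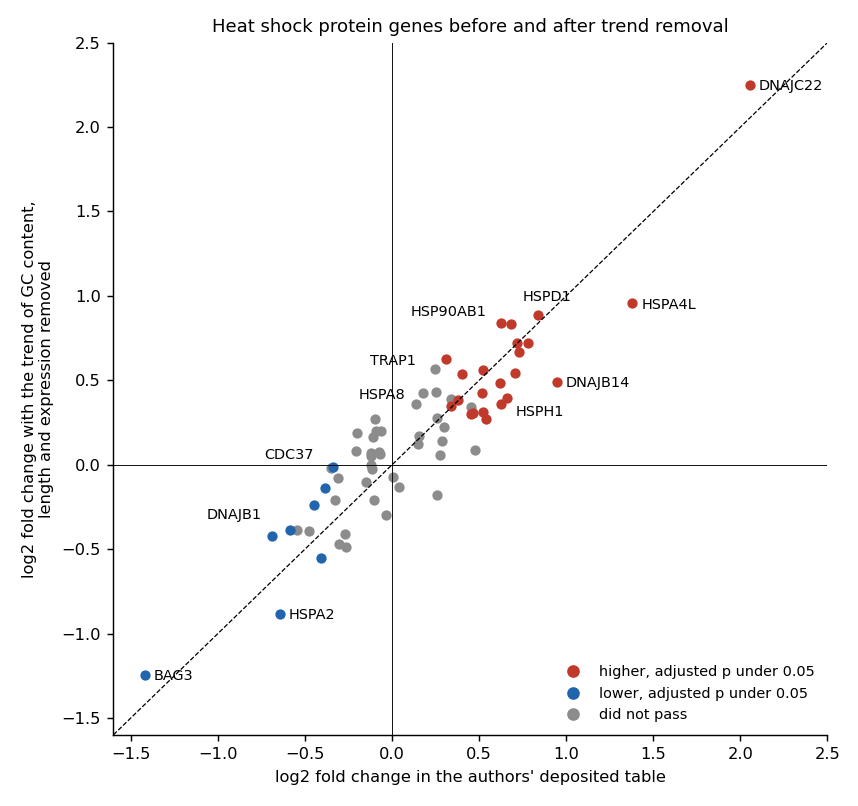
Log2 fold change of the 70 genes per the authors' deposited table (horizontal axis) against the value after removal of the trend (vertical axis), coloured by the DESeq2 adjusted p as deposited, with a dashed line of equality. The 23 genes called higher stay between 0.27 and 2.25 on the vertical axis, and the 8 called lower between -1.25 and -0.01, with CDC37 nearest to 0.

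Chaperones of the ER went down where many cytosolic ones went up. Of 26 ER chaperones and folding enzymes, 0 rose and 21 fell (80.8%) per the authors' deposited table, beside 16.3% and 17.7% of all genes. The median log2 fold change was -1.18, or -1.09 with the trend removed. At an unadjusted DESeq2 p under 0.05 these were 0 higher and 22 lower, and 5998 of all 13885 genes passed. The largest of these decreases were seen for CRELD2 at -2.37 (SE 0.15), SDF2L1 at -2.33 (SE 0.17), HYOU1 at -2.18 (SE 0.14) and PDIA4 at -2.12 (SE 0.15) per the authors' deposited table, beside ERO1B at -2.37 (SE 0.23). ERO1A, an oxidase of the ER, was at 0.10 (SE 0.14) and was the only positive value of the 26. Of the sensors and effectors of the ER stress response, 14 of 14 measured fell per the authors' deposited table, beside 17.7% of all genes. Their median was -1.30, and among them were SYVN1 at -1.80, PPP1R15A at -1.72, HERPUD1 at -1.57 and SEL1L at -1.51.

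Because each compartment has its own version of the same machine, relatives can be set side by side. HSPA5 (BiP), the HSP70 of the ER, had a 95% interval of -2.20 to -1.43 per the authors' deposited table, below that of its cytosolic relative HSPA8, -0.09 to 0.44. Its exchange factors HYOU1 and SIL1 were at -2.18 and -0.47 per the authors' deposited table, while the cytosolic HSP110 genes rose and the mitochondrial GRPEL1 and GRPEL2, at 0.05 and -0.06, did not pass. HSP90B1, the HSP90 of the ER, fell by 1.05 on the log2 scale per the authors' deposited table, while HSP90AA1 and HSP90AB1 rose. Among the J-domain proteins of the ER, DNAJB9 was at -1.70, DNAJC3 at -1.45, DNAJB11 at -1.26 and DNAJC10 at -1.08 per the authors' deposited table. DNAJC1 at -0.36 and SEC63 at -0.08 did not pass.

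Over these machines, 6 of 13 cytosolic genes rose (46.2%) and 2 fell (15.4%), beside 16.3% and 17.7% of all genes. Their median was 0.45 per the authors' deposited table. Left out of the 13 are DNAJB2 and DNAJB5, which fell, and the BAG genes, of which BAG3 fell and BAG1, BAG4 and BAG5 rose. Of the 6 mitochondrial ones 0 rose and 2 fell (33.3%), with a median of -0.09 per the authors' deposited table. The mitochondrial chaperonin is not among these 6, and its genes HSPD1, at 0.84, and HSPE1, at 0.68, rose. Of the 11 ER ones 0 rose and 9 fell (81.8%), with a median of -1.08 per the authors' deposited table. HSPA13, an HSP70 of the ER and microsomes, was among the 9 at -0.45 (SE 0.17, DESeq2 adjusted p = 0.0320). Which genes stand for which machine was chosen after their values were seen, so these shares and medians depend on that choice. The difference between compartments was not tested.

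**Figure D4:**
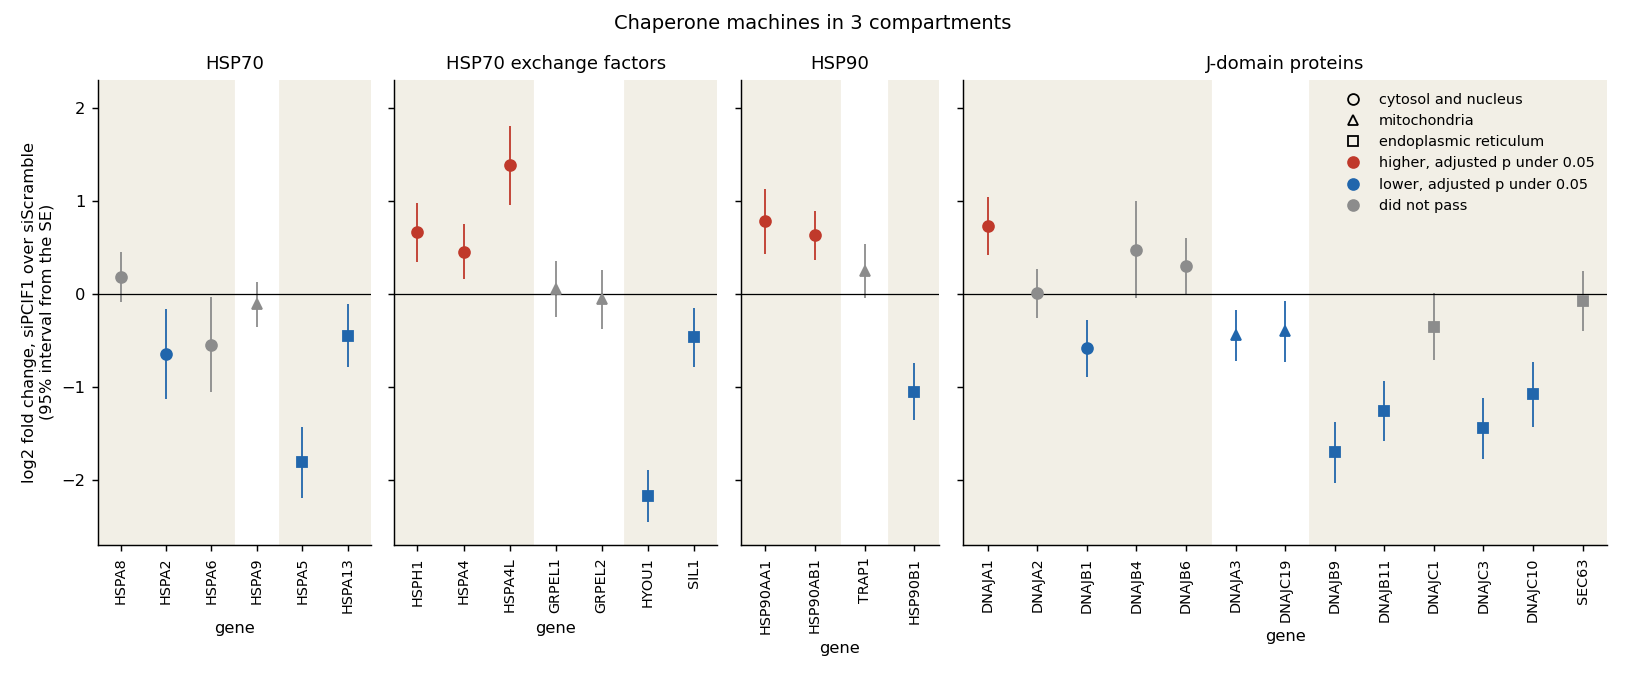
Log2 fold change, siPCIF1 over siScramble, with 95% intervals from the SE (vertical axis), of the parts of 4 chaperone machines, with circles for the cytosol and nucleus (left shading), triangles for mitochondria (no shading) and squares for the ER (right shading). In each panel the lowest gene is one of the ER, down to -2.18 for HYOU1, and the highest point of all is the cytosolic HSPA4L at 1.38. The genes drawn were chosen after their values were seen.

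ER stress elements were searched in the same way. An ER stress element, written as CCAAT, any 9 bases and CCACG on either strand, was present in 0 of the 63 windows of the heat shock protein families. It was present in 7 of 24 windows of ER chaperones (29.2%), beside 0.0769% of all 35116 windows. With so low a share over all windows, 0 of 63 does not set the heat shock protein families apart from other genes. The sites of HSPA5, HSP90B1 and CALR are given as the counterparts of the heat shock elements above, with the ER stress element in capitals.
HSPA5, chr9:125241386-125241415, minus strand: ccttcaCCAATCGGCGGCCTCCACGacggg
HSP90B1, chr12:103930210-103930239, plus strand: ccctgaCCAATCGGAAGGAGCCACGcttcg
HSP90B1, chr12:103930315-103930344, plus strand: tgggtgCGTGGTGCGGCGCGATTGGtgggt
CALR, chr19:12938378-12938407, plus strand: cccacgCGTGGTCGACCATCATTGGtcggt
The second HSP90B1 site and that of CALR are on the reverse strand. Of the 7 genes 6 fell per the authors' deposited table, beside 80.8% of the 26 ER chaperones and 17.7% of all genes. CANX, at -0.26 (SE 0.13, DESeq2 adjusted p = 0.107), did not pass. The median of the 7 was -1.80 per the authors' deposited table. It was -1.15 for the 17 ER chaperones with a window and no such element, and the difference was not tested. The 2-unit heat shock element was present in 2 of the 24 windows (8.33%), those of ERP44 and SIL1, beside 13.5% of all windows. The 3-unit element was present in 0, beside 0.49% of all windows, a share too low for this 0 to set them apart.

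Genes that respond to heat shock but lie outside these families changed in both directions. Of 15 measured, 4 rose (26.7%) and 8 fell (53.3%) per the authors' deposited table, beside 16.3% and 17.7% of all genes, with a median of -0.44 that became -0.13 with the trend removed. Those that fell include ZFAND2A, a proteasome-associated zinc finger protein, at -1.68 (SE 0.19), and SERPINH1 (HSP47), the collagen chaperone, which itself works in the ER, at -1.53 (SE 0.15) per the authors' deposited table. DEDD2 was at -1.10 (SE 0.18) and SQSTM1, an autophagy receptor, at -0.65 (SE 0.13) per the authors' deposited table. The 4 that rose, CHORDC1 at 0.68 (SE 0.20), PTGES3 at 0.48 (SE 0.18), CACYBP at 0.40 (SE 0.15) and FKBP4 at 0.35 (SE 0.13) per the authors' deposited table, encode proteins that bind HSP90 or, in the case of CACYBP, a partner of the ligase SIAH1.

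Of 19 measured co-chaperones of HSP70 and HSP90 outside the families, 6 rose (31.6%) and 3 fell (15.8%) per the authors' deposited table, beside 16.3% and 17.7% of all genes. Their median was 0.18, and 0.11 with the trend removed. FKBP5, a steroid receptor co-chaperone, was at 0.79 (SE 0.21, DESeq2 adjusted p = 0.000983) per the authors' deposited table. Those lower include UNC45A, a myosin chaperone, at -0.67 (SE 0.15), and PIH1D1 at -0.61 (SE 0.18) per the authors' deposited table. This list shares CHORDC1, FKBP4, PTGES3 and HSPBP1 with the heat shock response genes. HSF4 and HSBP1, a heat shock factor and a binder of heat shock factors, were at 0.23 and -0.04 per the authors' deposited table, and neither passed.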

How the data were processed

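RNA-seq of 6 samples was compared, 3 siPCIF1 against 3 siScramble. Per the labels' protocols, poly(A) libraries were strand-specific. Tools named in the submitters' processing notes are STAR 2.7.10a, cutadapt 3.7, bcl2fastq 2.20, DESeq2, HTSeq and deepTools, with the build hg38; for annotation and counting strand, no setting is given in the sources used here. Per the file headers, the authors deposited 6 DESeq2 columns for 13885 genes. The mean normalised count was computed by the authors over all samples and is a signal. The log2 fold change and its SE were computed by the authors with DESeq2. The authors' Wald statistic is a score that DESeq2 computed from these. The p-value and adjusted p-value were computed by the authors with DESeq2.

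Identifiers were matched to GENCODE 29 (13877 of 13885). Calls are the authors' DESeq2 adjusted p under 0.05 over all genes. Intervals are 95% from the SE, which may be shrunken with the fold change, since for 1311 genes it is below counting error alone, so printed fold changes may understate the change. The trend was removed by regression on splines of GC content, length and mean, tested on simulated data, with adjusted p-values recomputed over all genes. Gene lists were described by counts and medians: ER chaperones, ER stress sensors and effectors, heat shock response genes, HSP70 and HSP90 co-chaperones, CCT cofactors, mitochondrial proteostasis, heat shock factors and markers. Members and lists were chosen with earlier results of these data known. Named were PCIF1, all members outside DNAJ and CCT genes, called DNAJ and CCT genes, ER counterparts, and of each other list up to 4 genes by adjusted p plus those against the majority; further genes named were chosen after their values were seen. Values of 2 genes of these lists are not reported here. Alternatives were other thresholds, a minimum mean or fold change, centring, trend removal, scaling to the robust SD, and leaving out members with pseudogenes or opposite-strand overlaps. Exons of 31 members overlap a gene on the opposite strand, and 17 members have pseudogenes named after them. Python 3.11.15, numpy 2.4.6, pandas 2.3.3, scipy 1.17.1 and matplotlib 3.10.9 were used.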

Additional observations from a re-analysis of the deposited data

How the results depend on the processing

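No paired analysis was possible because values per library were not analysed here; for the same reason no sample was left out in turn, and the SE is the one measure of spread. An unshrunken estimate was not recovered, and the planned exclusion of HSPA1A and HSPA1B was void since they are not among the 70 genes. The alternatives with pseudogenes, opposite-strand overlaps and the robust SD were chosen after seeing the data.

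The 23 of 70 members called higher became 1 when the deposited Wald statistic was scaled to its robust SD. They were 14 of 39 without opposite-strand overlaps, a count from a smaller set of members, and 16 to 25 under the other alternatives. The 8 called lower became 4 at an adjusted p of 0.01, 4 with a log2 change of at least 0.5 and 5 with the trend removed. They were 4 of 53 without pseudogenes and 0 at the robust SD. At the robust SD 1 member, DNAJC22, was called, and in all 21 genes were higher and 114 lower. The shares of all genes at the other adjusted p thresholds and at the log2 limit were not computed. Whether the member counts moved apart from those of all genes there is therefore not known. The 21 ER chaperones called lower became 12 at the robust SD. Trend removal ended 13 of the 31 calls and added 6 (HSPA8, TRAP1, DNAJC11, CCT2 and AHSA1 higher, DNAJC16 lower). Of members not called, DNAJA2 turned to -0.00065 when centred. With the trend removed, others turned sign: HSPB1 to 0.27, HSPB11 to 0.0615, DNAJA2 to -0.0757, DNAJB12 to 0.0665, DNAJC14 to 0.000205, DNAJC30 to 0.0753, DNAJC4 to 0.0823, DNAJC5 to 0.0539, CCT3 to 0.20, CCT6B to -0.13, CCT7 to 0.20, BAG2 to -0.18, BAG6 to 0.17 and STUB1 to 0.19. Why calls changed was not tested.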

Other observations

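The protein quality control of mitochondria outside the heat shock protein families changed in both directions. Of 16 genes measured, 4 rose (25.0%) and 6 fell (37.5%) per the authors' deposited table, beside 16.3% and 17.7% of all genes, with a median log2 fold change of -0.03, or 0.05 with the trend removed. CLPB, a disaggregase of the space between the mitochondrial membranes, rose, at 0.76 (SE 0.14, DESeq2 adjusted p = 2.41e-06) per the authors' deposited table. CLPX, the unfoldase partner of the protease CLPP, rose at 0.56 (SE 0.17, DESeq2 adjusted p = 0.00558), whereas CLPP itself fell, at -0.50 (SE 0.14, DESeq2 adjusted p = 0.00275) per the authors' deposited table. AFG3L2, an inner membrane protease, and PMPCB, a subunit of the enzyme that cuts off import signals, were at 0.41 and 0.33 per the authors' deposited table.

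LONP1, the main protease of the matrix, fell, at -0.90 (SE 0.14, DESeq2 adjusted p = 7.85e-09) per the authors' deposited table. ATF5, a transcription factor of the mitochondrial stress response, was at -1.07 (SE 0.18) and HSCB, a J-domain protein of iron-sulfur cluster assembly, at -0.98 (SE 0.20) per the authors' deposited table. These decreases stand beside the increases of HSPD1 and HSPE1 in the same compartment.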
